A study of Caenorhabditis elegans with 6 samples.

Results

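The genes described are 10 genes of the molting cycle of Caenorhabditis elegans, 6 regulators and 4 effectors, out of 21951 genes in the deposited count table. They were chosen by name, with earlier results of these data known. The regulators are the transcription factor genes nhr-23, nhr-25, grh-1, myrf-1, bed-3 and blmp-1, and the effector genes are mlt-10, mlt-11, nas-37 and bli-5. All 10 were found by their sequence names, and each matched the RefSeq symbol. RNA of whole wild-type, egg-bearing young adult animals was enriched for poly(A) and sequenced in 6 libraries. The control group held 3 libraries, and the other 3 came from animals exposed to 100 mM ethyl carbamate for 24 h. No dose or time was recorded for the controls in the sample labels used here. Ethyl carbamate, or urethane, is a small ester found in fermented foods. The design text calls the replicates biological; the sample descriptions and column names of both groups carry the prefix EV, which the labels do not explain. Totals were 19026133 to 22416213 gene counts per library, and libraries of one group correlated at 0.9918 to 0.9943 across genes on log2 CPM, against 0.9286 to 0.9335 between groups.

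A nematode larva replaces its cuticle at the end of each larval stage. Epidermal cells detach from the old cuticle, secrete a new one and shed the old one, and the transcripts of many epidermal genes rise and fall once per cycle. Transcription factors such as NHR-23 and GRH-1 drive this rhythm, and proteases, protease inhibitors and secreted matrix proteins carry it out. Adults no longer molt, and in egg-bearing adults the embryos inside the mother also build a first cuticle.

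After ethyl carbamate, 5 of the 6 regulators rose and nhr-23 fell, while 3 effectors were called higher and bli-5 had too few reads to test. The rises ran from 1.2-fold for nas-37, whose call was lost when any of 3 libraries was left out, to 7.07-fold for grh-1. Called means an adjusted p under 0.05 by edgeR's quasi-likelihood test over 14705 tested genes, and 76.3% of those genes were called: 40.0% higher and 36.3% lower. The 9 tested members therefore stand against a background in which most genes were called. Of the 9, 5 were called and at least 2-fold higher (grh-1, mlt-11, blmp-1, bed-3 and nhr-25), against 23.8% of all tested genes, and none was called at least 2-fold lower, against 3.34%. Their median log2 fold change was 1.33, beside 0.05 for all tested genes and −0.14 for the 5350 tested genes in the members' range of abundance (log2 CPM 4.14 to 6.96). In those 5350 genes 30.7% were called higher and 51.7% lower. Because the members were chosen with results known, these contrasts only describe them and got no test. The CPM of the groups did not overlap for 8 of the 10 members, and for 77.8% of all tested genes.

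**Figure D1:**
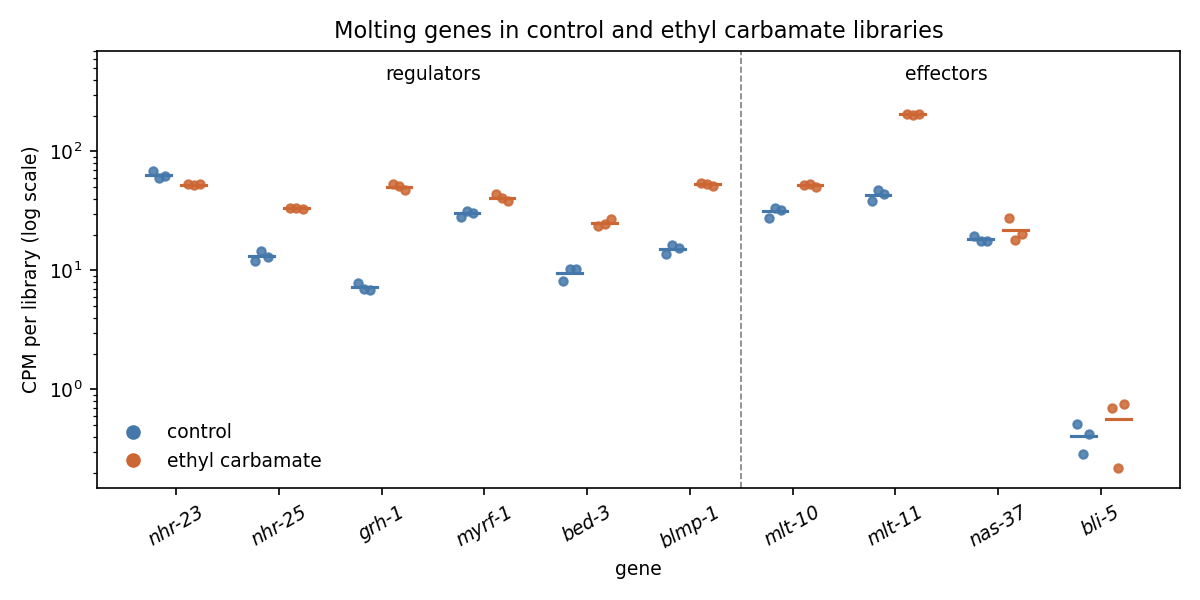
CPM (TMM-scaled) of each gene in each library, on a log axis; points are libraries and bars are the means of 3. The groups do not overlap for the 6 regulators, mlt-10 and mlt-11, nhr-23 being the one with lower exposed libraries; they overlap for nas-37 and bli-5.

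Among the regulators, grh-1 changed most. It encodes the Grainyhead-type factor of the worm, a family that controls epidermal barrier genes across animals (Y48G8AR.1, chromosome I, 1259489 to 1268155, minus strand). Its CPM, read counts relative to the scaled library size, was 7.80, 6.99 and 6.80 in the controls and 53.3, 50.9 and 47.8 in the exposed libraries. The lowest exposed library was far above the highest control, and neither group spread much. The rise was 7.07-fold (log2 fold change 2.82, standard error 0.08, edgeR adjusted p = 1.19e-17).

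The next largest rise of a regulator was that of blmp-1, the worm's homolog of Blimp-1, a zinc finger factor that opens chromatin at cycling epidermal genes (F25D7.3, chromosome I, 10409359 to 10413846, plus strand). Control libraries held 13.7, 16.2 and 15.3 CPM and exposed libraries 54.2, 53.2 and 51.1. The groups stood well apart, with a 3.49-fold rise (log2 fold change 1.80, standard error 0.07, edgeR adjusted p = 1.68e-15).

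bed-3 and nhr-25 rose by like amounts. The BED zinc finger gene bed-3, needed for molting and for vulval cell divisions (F25H8.6, chromosome IV, 9916528 to 9921969, plus strand), went from 8.09, 10.3 and 10.2 CPM to 23.4, 24.4 and 27.0. The lowest exposed library lay above every control, and the rise was 2.60-fold (log2 fold change 1.38, standard error 0.09, edgeR adjusted p = 3.79e-11). nhr-25 encodes the nuclear receptor related to insect Ftz-F1 (F11C1.6, chromosome X, 13008493 to 13013953, plus strand). It had 12.0, 14.6 and 12.9 CPM in the controls and 33.6, 33.5 and 33.1 after exposure. Its exposed libraries were nearly identical, and the rise was 2.52-fold (log2 fold change 1.33, standard error 0.08, edgeR adjusted p = 1.84e-12).

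For myrf-1 the change was small. Its product is a membrane-anchored factor whose cleaved part enters the nucleus and which larvae need to go on molting (F59B10.1, chromosome II, 10497364 to 10502541, minus strand). Controls held 28.1, 31.7 and 30.5 CPM and exposed libraries 43.9, 40.5 and 38.2, without overlap. The rise was 1.35-fold (log2 fold change 0.44, standard error 0.07, edgeR adjusted p = 4.62e-06). On quantile-normalized FPKM the log2 fold change became −0.04 and was not called (limma adjusted p = 0.631). The median of the 13917 genes in that fit lay 0.16 below that of the 14705 genes in the main fit.

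nhr-23 was the regulator that fell. NHR-23 is the worm's counterpart of insect HR3 and vertebrate ROR receptors, is required at every larval molt, and also acts in spermatogenesis (C01H6.5, chromosome I, 7214745 to 7221188, plus strand). The controls held 68.3, 59.7 and 61.5 CPM and the exposed libraries 52.7, 52.1 and 52.9. Each exposed library was below each control, and the exposed libraries were nearly equal. The fall was 1.2-fold (log2 fold change −0.26, standard error 0.05, edgeR adjusted p = 1.34e-04). With libraries scaled by size only, which moves the median of all genes up by 0.19, the value was −0.07 and missed the threshold (edgeR adjusted p = 0.22); it was negative under all 15 alternatives.

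Of the effectors, mlt-11 changed most. It encodes a large secreted protein with Kunitz-type protease inhibitor domains that molting larvae need (W01F3.3, chromosome V, 20667211 to 20678540, plus strand). Its CPM was 38.3, 47.8 and 44.1 in the controls and 205, 202 and 205 after exposure. The exposed libraries agreed closely, and the rise was 4.69-fold (log2 fold change 2.23, standard error 0.05, edgeR adjusted p = 1.16e-18).

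mlt-10, a nematode gene expressed in the epidermis during molts and needed to finish them, rose less (C09E8.3, chromosome II, 546705 to 552026, plus strand). Controls held 27.7, 33.7 and 32.4 CPM and exposed libraries 51.7, 53.2 and 50.2. The groups did not overlap, and the rise was 1.65-fold (log2 fold change 0.72, standard error 0.06, edgeR adjusted p = 2.55e-09).

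nas-37 encodes an astacin metalloprotease that digests the old cuticle so that it can be shed (C17G1.6, chromosome X, 9944848 to 9949060, minus strand). The control libraries held 19.4, 17.8 and 17.8 CPM and the exposed libraries 27.7, 18 and 20.2. Exposed replicate 1 was high, while exposed replicate 2 lay among the controls. The call of a 1.2-fold rise (log2 fold change 0.26, standard error 0.11, edgeR adjusted p = 0.0435) was not stable. Without exposed replicate 1 the value was 0.06 (edgeR adjusted p = 0.558), and without control replicate 2 or 3 the edgeR adjusted p was 0.117 or 0.13. On quantile-normalized FPKM it turned to −0.30 (limma adjusted p = 0.118). It stayed called with the same sign in 6 of 15 alternatives, whose adjusted p ran from 0.0016 to 0.558.

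bli-5, a gene for a small Kunitz-type protein whose loss blisters the cuticle, was almost silent (F45G2.5, chromosome III, 13427723 to 13429713, minus strand). It had 9, 6 and 9 reads in the controls and 15, 5 and 17 reads after exposure, so the groups overlapped. The ratio of pooled reads, 37 to 24, was 1.38 per scaled library with a 95% exact (Clopper-Pearson) interval of 0.803 to 2.41, which covers counting error only. The interval includes 1, and the 3 exposed libraries differed widely; without the filter on low counts the edgeR adjusted p was 0.47.

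The authors' deposited table gives log2 fold changes of the same sign for all 10 genes. Its adjusted p was 1.78e-05 for nhr-23, 0.188 for nas-37 and 0.644 for bli-5. In the Ensembl annotation of WBcel235, exons of bed-3, nas-37 and bli-5 overlap those of a gene on the opposite strand, by 30, 32 and 82 bases. Whether the counting used strand is not given in the sources used here. For bed-3 the partner, dur-1, had a log2 fold change of 1.07, that of nas-37, C17G1.5, had 0.71, and that of bli-5, cope-1, had −0.11. cope-1 held 1469 to 1870 reads per library against 5 to 17 for bli-5. Whether reads of cope-1 were counted for bli-5 was not tested. Same-strand overlaps of mlt-10 with lips-7 and T27A1.3 span 109 and 16 bases, and those of mlt-11 with W01F3.4 and W01F3.5 span 90 and 112. The log2 fold change was 1.62 for lips-7 and 0.64 for T27A1.3, at means of 4.49 and 2.66 CPM after exposure. W01F3.4 and W01F3.5 have no counts in the deposited data.

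Levels of different genes were compared on the authors' FPKM, which divide by transcript length. In the controls nhr-23 stood alone at the top with a mean of 25.1 FPKM (23.6 to 27.3 over the 3 libraries). mlt-10 at 13.7, myrf-1 at 9.38 and nas-37 at 7.39 followed, with no overlap between neighbours in that order. blmp-1 (6.27), nhr-25 (5.25), mlt-11 (4.53), grh-1 (4.34) and bed-3 (4.32) came next, and each overlapped the next one within the spread of its 3 libraries. bli-5 was lowest at 0.687.

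After exposure grh-1 led with 29.5 FPKM (27.8 to 31.2). mlt-10 at 21.8, blmp-1 at 21.2 and mlt-11 at 20.5 overlapped as neighbours, and nhr-23 followed at 20.1. nhr-25 (12.8), myrf-1 (12.3), bed-3 (10.9) and nas-37 (8.55) overlapped each with the next, and bli-5 stayed last at 0.906. By mean FPKM, grh-1 moved from rank 8, where it overlapped its neighbours mlt-11 and bed-3, to rank 1. nhr-23 moved from rank 1 to rank 5, close below mlt-11.

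**Figure D2:**
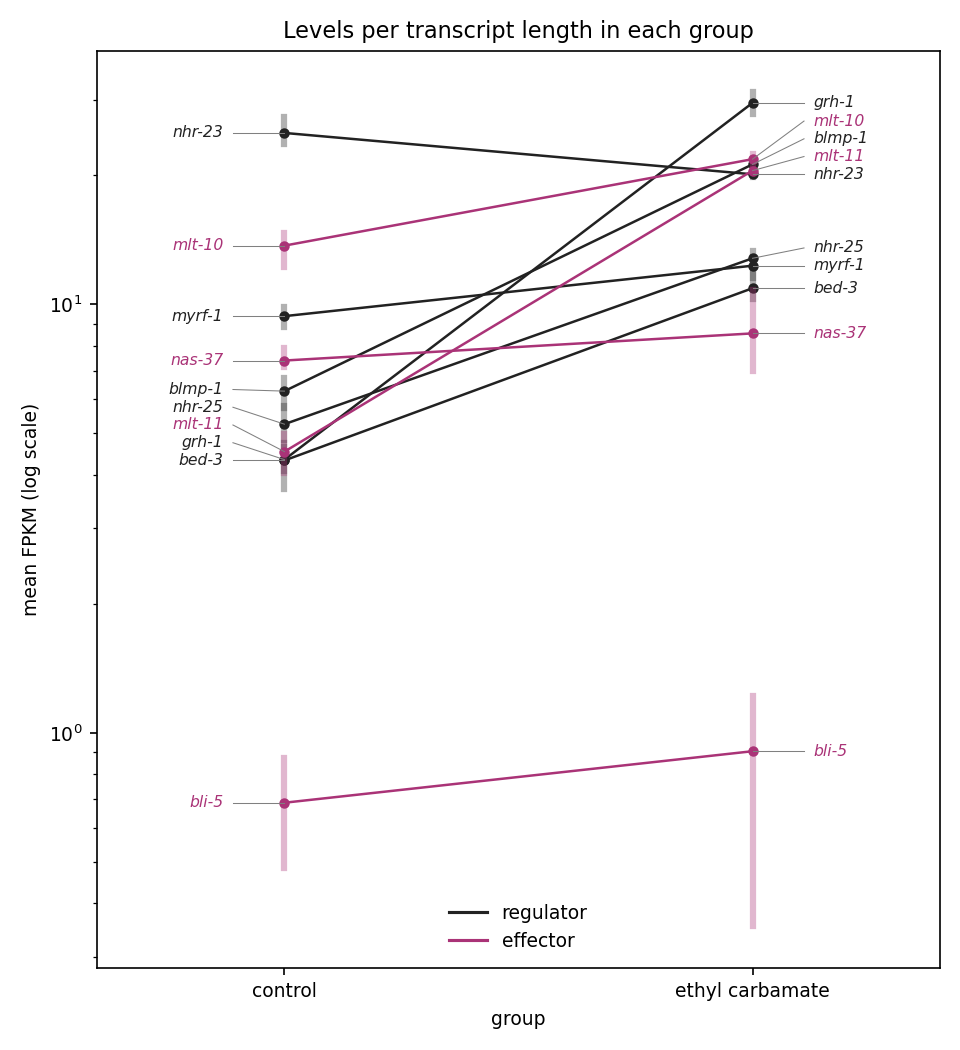
Mean FPKM of each gene in the control and ethyl carbamate libraries (n = 3 each) on a log axis; lines join the means and pale bars span the 3 libraries. grh-1 goes from 4.34 to 29.5 and crosses nhr-23, which goes from 25.1 to 20.1.

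Ratios of reads within a library do not depend on how libraries are scaled. For each read of nhr-23 the controls held 0.114, 0.117 and 0.111 reads of grh-1, and the exposed libraries 1.01, 0.977 and 0.904. Reads of grh-1 thus went from well below those of nhr-23 to about equal, 8.47-fold on the means. For mlt-11 the ratio was 0.561, 0.8 and 0.716 in the controls and 3.90, 3.88 and 3.88 after exposure. All 8 other genes that were tested had a higher ratio to nhr-23 in each exposed library than in any control. These 8 had been called higher and nhr-23 lower, so higher ratios largely follow from those calls. The share of all tested genes with such a ratio was not counted. On CPM alone the groups did not overlap for 77.8% of them. The smallest shift was that of nas-37, from 0.284, 0.298 and 0.289 to 0.527, 0.346 and 0.382. The CPM of nhr-23 itself fell 1.2-fold, which raises every one of these ratios. For nas-37 the ratios of the groups stood apart although its own CPM overlapped.

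**Figure D3:**
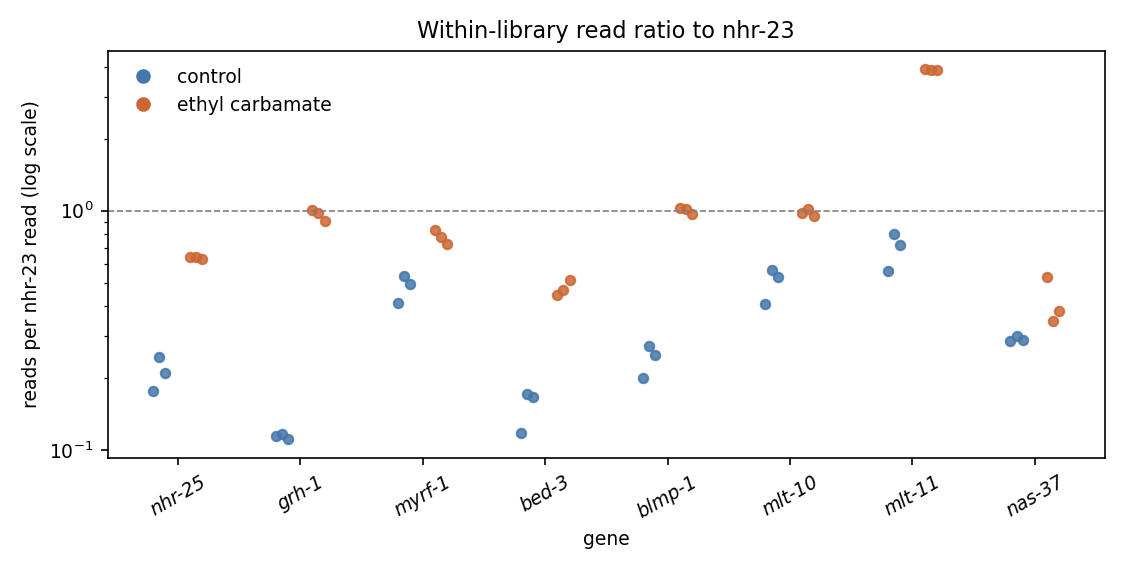
Reads of each tested gene per read of nhr-23 in the same library, on a log axis; the dashed line marks equal reads. The exposed libraries lie above the controls for all 8 genes, with grh-1 going from about 0.114 to 0.965. The fall of nhr-23 itself raises every ratio, and the share of all tested genes with such a ratio was not counted.

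Summed by class, regulators and effectors moved by nearly the same factor on FPKM and by different factors on CPM. The summed FPKM of the 6 regulators went from 54.6 ± 0.668 to 107 ± 2.68 (SD, n = 3 per group), 1.95-fold, and that of the 4 effectors from 26.3 ± 1.15 to 51.8 ± 2.46, 1.97-fold. These sums rest on unlike genes. Of the regulator sum, nhr-23 held 25.1 FPKM in the controls and fell to 20.1, while without mlt-11 the effector sum rose 1.44-fold. Median log2 fold changes were 1.36 for the 6 regulators and 0.72 for the 3 tested effectors. Effectors per regulator on FPKM were 0.454, 0.499 and 0.492 in the controls and 0.498, 0.471 and 0.487 after exposure, so the groups overlapped. On summed CPM, which counts a long transcript more, the regulators went from 138 to 255 and the effectors from 93.4 to 278. The ratio was then 0.623, 0.714 and 0.690 against 1.09, 1.08 and 1.1, with no overlap. The difference between the scales follows mlt-11, whose deposited length of 9793 bases is the longest of the 10. Without mlt-11, an alternative chosen after the values were seen, effectors per regulator were 0.362 in the controls and 0.291 after exposure on CPM, and 0.399 and 0.293 on FPKM. The members were chosen with results known, so this ratio got no test.

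Other genes known for a part in molting were taken from 6 fixed lists of 41 genes, all of which had enough reads. Of these, 27 were higher, 8 lower and 6 not called, and the median log2 fold change was 0.80. Of all tested genes, 40.0% were called higher and 36.3% lower, and these shares stand beside each list below. When libraries were scaled by size only, 2 of the 41 were lower. At least 2-fold higher and called were 20 of the 41, against 23.8% of all tested genes. The lists differed in how many of their genes rose.

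The 8 apical matrix genes were all higher, 7 of them at least 2-fold, and the median log2 fold change was 2.04. Some of these proteins help to build the temporary coat that patterns each new cuticle. Largest was mlt-9, which rose 6.75-fold from 9.52 ± 3.03 to 65.1 ± 5.41 CPM (SD, n = 3). The lipocalin gene lpr-3 rose 5.32-fold, the zona pellucida domain genes noah-2, noah-1 and let-653 rose 4.61-fold, 4.23-fold and 3.01-fold, the fibrillin-like fbn-1 rose 4-fold and mlt-8 rose 3.57-fold. noah-2, mlt-8 and noah-1 had the highest levels of the 8 after exposure, at 108, 84.4 and 75.4 FPKM.

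All 4 patched-related genes, whose membrane proteins resemble the Hedgehog receptor, were at least 2-fold higher. ptr-4 rose 6.28-fold from 11 ± 0.84 to 69.5 ± 1.64 CPM, ptr-18 rose 5.03-fold, ptc-3 4.06-fold and ptr-23 2.29-fold. Their median log2 fold change was 2.18.

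Of the 7 other regulators 6 were higher, mostly by less than 2-fold. The exception was nhr-91, a nuclear receptor gene, which rose 6.66-fold from 4.10 ± 0.767 to 27.6 ± 1.12 CPM. The Period homolog lin-42 had a log2 fold change of 0.80, ztf-6 0.78, nhr-85 0.73, pan-1 0.70 and the myrf-1 paralog myrf-2 0.28, all called. lin-29, the zinc finger gene of the larva-to-adult switch, had 2.5 ± 0.421 CPM in the controls and 2.04 ± 0.189 after exposure and was not called (edgeR adjusted p = 0.239).

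Proteases and peptidase-like genes were mixed, with 2 of 7 higher, 2 lower and 3 not called, beside 40.0% higher and 36.3% lower of all tested genes. acn-1, which encodes a relative of angiotensin-converting enzyme needed for molting, rose 4.60-fold from 19.2 ± 2.61 to 88.8 ± 1.89 CPM. The astacin gene nas-38 rose 3.22-fold, from 1.95 ± 0.272 to 6.33 ± 0.496 CPM. nas-36, which like nas-37 acts in shedding the old cuticle, was not called (log2 fold change 0.07, standard error 0.2, edgeR adjusted p = 0.744). The abundant bli-4 and cpl-1, for a procollagen-processing protease and cathepsin L, were lower by log2 −0.23 and −0.12, and both were not called lower with scaling by library size.

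Of 5 genes of cuticle redox enzymes, 3 were higher and 1 lower, beside 40.0% and 36.3% of all tested genes. Their median of 0.41 turned to −0.22 on quantile-normalized FPKM (2 higher, 2 lower). doxa-1, the maturation factor of the dual oxidase, rose 5.28-fold to 11.1 ± 1.28 CPM, and the tetraspanin gene tsp-15 rose 2.72-fold. The oxidase gene bli-3 had a log2 fold change of 0.41 and the peroxidase gene skpo-1 −0.60, both called, while the peroxidase gene mlt-7 was at −0.01 (edgeR adjusted p = 0.858).

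Uptake and trafficking genes went both ways, with 4 of 10 higher and 5 lower, beside 40.0% and 36.3% of all tested genes. The amyloid precursor-like apl-1 rose 2.20-fold, the megalin-type receptor gene lrp-1 2.12-fold, and mlt-2 and mlt-4, partners of NIMA-related kinases, 2.10-fold and 2.08-fold. With quantile-normalized FPKM mlt-2 and mlt-4 were not called. Lower were dab-1, hgrs-1, sec-23, mlt-3 and nekl-2, by log2 −0.19 to −0.45, and with scaling by library size 1 of the 10 was lower and 5 were higher.

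**Figure D4:**
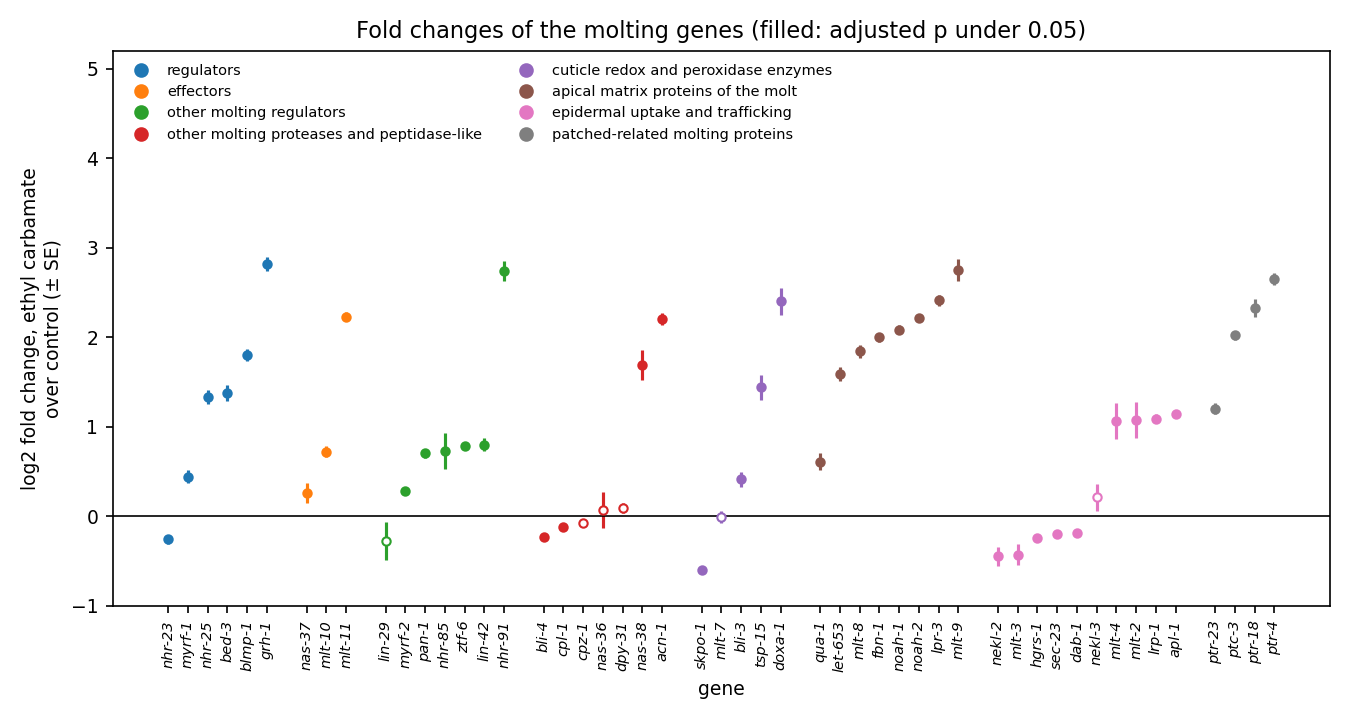
Log2 fold change of ethyl carbamate over control with its standard error (edgeR, n = 3 per group) for the 9 tested members and 41 other molting genes, grouped by list; filled points had an adjusted p under 0.05. All 8 apical matrix genes and all 4 patched-related genes lie above 0, and nhr-23 lies below it at −0.26.

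Markers of several cell types moved in the same libraries, where 40.0% of all tested genes were called higher and 36.3% lower. Of 8 epidermis and seam identity genes, 7 were higher and none lower, and their median log2 fold change was 1.48; their summed CPM was 336 to 355 in the controls and 637 to 662 after exposure, and none was at 0. ajm-1, a junction gene of epithelia, rose 3.72-fold and the epidermal factor gene elt-3 3.06-fold, while lin-26, needed for epidermal fate, was at 0.06 (edgeR adjusted p = 0.135). Markers of other somatic tissues were higher too: 7 of 7 for body wall muscle, 5 of 5 for pharynx, 6 of 7 for neurons and 5 of 7 for intestine, with medians of 0.91, 1.61, 0.88 and 0.77. All 8 germline and oocyte markers were lower, with a median of −0.44 and a summed CPM of 6380 to 6800 in the controls and 4420 to 4500 after exposure. Of 5 early embryo markers the 4 tested were lower, by log2 −0.80 to −1.2. Levels of end-1, end-3 and tbx-37 were low, with control means of 2.35, 1.42 and 2.77 CPM, against 17.7 for pes-10. Of 6 adult cuticle collagen genes only col-19 had enough reads, and it fell 4.16-fold from 186 ± 9.72 to 44.7 ± 4.53 CPM. Fewer cells of a type and less RNA per cell cannot be told apart in whole animals, and the part of these markers in the members' changes was not tested.

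Genes with the most similar profile were sought by the Euclidean distance of log2 CPM, centred on the control mean, over the 6 libraries, among 8750 tested genes with a symbol. Nearest to nhr-23 were arx-3, tut-1 and cdc-73, at distances of 0.0456, 0.0489 and 0.0536 and log2 fold changes of −0.25, −0.29 and −0.28. Nearest to nas-37 were vamp-8, col-155 and aat-6, much farther away at 0.227, 0.272 and 0.274. With 2 groups of 3, this distance mostly ranks genes by the size of the change, and for nas-37 by the high exposed replicate 1.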

How the data were processed

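The deposited table gives whole-number read counts per gene and library with no normalization, per the file headers, beside FPKM computed by the authors and the authors' log2 fold changes and adjusted p-values. DESeq2 1.20.0, StringTie 1.3.3, featureCounts 1.5.0-p3 and HISAT2 2.0.5 appear in the submitters' processing notes, without roles, and the design text names DEGSeq. Genome build, strand setting and the handling of reads with several matches are not given in the sources used here. Coordinates are those of the deposited table.

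All genes were fitted together with edgeR 4.0.16 in R 4.3.3 (filterByExpr, TMM scaling, quasi-likelihood F test, two-sided, Benjamini-Hochberg over 14705 genes; 7246 genes had too few reads). CPM use TMM-scaled library sizes. Groups come from the labels' titles and treatment. The members and gene lists were chosen with earlier results of these data known, so lists are described by counts and medians, without tests. Named were all members, listed molting genes called and changed by 1 or more on the log2 scale, and the 3 nearest profiles to nhr-23 and nas-37; others in those lists are given to complete them. The alternatives were median-ratio scaling, library size only, DESeq2 1.42.0, no filter, limma 3.58.1 on log2(FPKM + 0.1), log2(FPKM + 1) and quantile-normalized log2(FPKM + 0.5) (genes reaching FPKM 1 in 3 libraries), the replicate block, leaving out each library and a threshold of 0.01; fold changes on FPKM understate changes of low genes. Promoter motifs were planned and not analysed here. Counts were also simulated over 14481 genes, with 50 genes changed at each fold, equally up and down, and the rest unchanged. There edgeR recovered 50% of genes changed 1.25-fold, 66% of those changed 1.5-fold, 82% of those changed 2-fold and 94% of those changed 4-fold. Of its 154 calls, 8 were false. In the data 76.3% of tested genes were called, so these rates cannot be carried over to the real comparison. Figures were drawn with matplotlib 3.10.9.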

Additional observations from a re-analysis of the deposited data

How the results depend on the processing

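Of the 655 values recomputed or judged again under alternatives, 627 kept their direction and their side of the threshold or stayed close to the reported value. Counts within a factor of 1.5 were taken as close, so effectors called higher going from 3 to 2 passed as kept. The threshold of 0.01 used the main fit again. Scaling by library size only gave 3409 genes lower and 7215 higher, 0 regulators lower and 2 other molting genes lower. The ratio of effectors to regulators, exposed over control, was 1.61 on CPM, 1.01 on summed FPKM, 0.803 without mlt-11 and 0.734 without mlt-11 on summed FPKM. On quantile-normalized FPKM the log2 fold change turned to −0.041 for myrf-1, −0.299 for nas-37, −0.249 for vamp-8, −0.097 for col-155 and −0.486 for aat-6. The cause of these turns was not tested. For grh-1, blmp-1, bed-3, nhr-25, mlt-11 and mlt-10 all 15 alternatives kept the call, with log2 fold changes of 2.38 to 3.01, 1.37 to 1.99, 0.76 to 1.57, 0.76 to 1.52, 1.73 to 2.42 and 0.46 to 0.91. For nas-37 the call was lost with DESeq2 (adjusted p = 0.188), median-ratio scaling (edgeR adjusted p = 0.0723) and without control replicate 2 (edgeR adjusted p = 0.117) or 3 (edgeR adjusted p = 0.13) as well. With each library left out in turn, 5699 to 5823 genes were higher and 5143 to 5241 lower, 5 regulators were higher and 1 lower, 2 to 3 effectors were higher, 27 other molting genes were higher and 7 to 9 lower, and the ratio was 1.55 to 1.66. Same-numbered libraries did not deviate together (correlations of −0.012 to −0.004). This cannot tell whether they were collected or processed as pairs, which the labels do not state. With the replicate block 5851 genes were higher and 5345 lower. bli-5, with 61 reads in all, had too few for the test.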

Other observations

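Families related to the members were counted by symbol, chosen after the members' values were seen. Of 27 tested astacin metalloprotease genes (nas), 14 were higher and 6 lower. Their median log2 fold change was 0.47; nas-13 had the highest at 2.87, going from 0.464 to 3.58 CPM, and nas-20 the lowest at −1.32. On quantile-normalized FPKM 7 of 21 were higher and 8 lower, with a median of −0.10. Of 8 tested mlt-10-related genes (mltn), 3 were higher, mltn-9, mltn-12 and mltn-13, and mltn-2 was lower, and on quantile-normalized FPKM 1 of 3 was higher and 1 lower. In all tested genes 40.0% were called higher and 36.3% lower.

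Hedgehog-related genes, many of which are expressed in the epidermis, were higher in most cases. The shares of all tested genes, 40.0% higher and 36.3% lower, stand beside the counts that follow. The warthog genes were higher in 8 of 9, the ground-like genes in 15 of 18 and lower in 1, and the groundhog genes in 9 of 13 and lower in 3. Their medians were 1.77, 1.93 and 1.33, and 1.45, 1.65 and 0.57 on quantile-normalized FPKM. Of 24 patched-related genes (ptr), 20 were higher and 3 lower; the median was 1.54, or 0.73 on quantile-normalized FPKM. Of 196 nuclear hormone receptor genes, 127 were higher and 18 lower, with a median of 0.64, but 47 of 170 were higher and 54 lower on quantile-normalized FPKM, with a median of 0.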
